A study of Rattus norvegicus with 9 samples.

Results

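The comparison of 6 with 28 months covered the whole span of ages sampled in the cerebral cortex of male BN rats (substrain BN/SsNOlaHSD), which were fed without restriction until they were killed. It took 6 of the 9 libraries of the series, chosen by their age label alone: 3 from 6-month-old rats and 3 from 28-month-old rats. Each library held ribodepleted total RNA pooled from 2 rats, so that the spread between libraries is a spread between pools, and the values of single animals cannot be recovered. All rats were males of 1 inbred substrain, and the groups differ in age and in no other labelled treatment. The reads were sequenced on the SOLiD platform, mapped to the rat genome and counted per Ensembl gene. The remaining age, 12 months, enters only as values beside the comparison.

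Of the 29516 identifiers in each file, 16172 reached 5 reads in 1 or more of the 6 libraries and were tested with edgeR's quasi-likelihood test. Changes are given as log2FC, the log2 ratio of the normalised level at 28 months to that at 6 months, with the standard error (SE) of the fit and the false discovery rate (FDR) over all genes tested. Normalised counts are in CPM, gene reads scaled to the size of the library, after TMM. Gene reads numbered 6761052 to 9196951 per library at 6 months and 6513376 to 8648997 at 28 months, and the most abundant identifier alone took 44.0 to 52.4% of them. The file of 6 months sample 2 is identical, in all 29516 identifiers, to a file deposited as 12 months sample 3, so the age of that library cannot be settled from the labels. It is called the shared library here, and each result was fitted with it, as labelled, and again without it, on 16042 genes in 5 libraries. The libraries also fell apart in the share of mapped reads that overlapped more than 1 gene. It was 0.0707 to 0.0794% in 6 months samples 1 and 3 and 28 months sample 1, which had 8648997 to 9196951 gene reads, and 0.0432 to 0.0459% in the other three, with 6513376 to 7057170. Without the shared library, both 6-month libraries lay on the high side of this split and 2 of the 3 libraries at 28 months on the low side. On the low side the shared library is the only one at 6 months. Each ratio given for that side, and each fit with a term for the split, therefore takes its age as labelled. The deposited files give identifiers without names, and the study's tables pair 149 of them with a name or a class of RNA, 79 protein coding and 70 not. The study drew most of those names from tests on these same libraries. Counts over them are therefore not independent evidence of a direction or of an excess over all genes.

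Sult1a1 encodes a cytosolic phenol sulfotransferase, which moves a sulfate group from the donor PAPS onto phenols, catecholamines and many drugs, and so makes them more soluble. Qdpr encodes dihydropteridine reductase, which returns the spent cofactor to tetrahydrobiopterin, needed by the hydroxylases that make serotonin and dopamine from tryptophan and tyrosine. Small nucleolar RNAs (snoRNAs) guide the modification of other RNAs in the nucleolus. The H/ACA class directs the change of uridine to pseudouridine, the C/D class directs methylation of the ribose, and the related scaRNAs act in Cajal bodies on the RNAs of the spliceosome.

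The 250 bases upstream of the annotated start are shown for the gene that rose, Sult1a1, and for Qdpr. Among the named protein-coding genes that were lower, Qdpr was the closest to the threshold. The sequences are from RefSeq (GRCr8), a later build than the one the reads were mapped to, and run 5′ to 3′ on the gene's own strand, chr1:190706113-190706362 on the minus strand for Sult1a1 and chr14:69882526-69882775 on the plus strand for Qdpr. Capitals mark matches on either strand to any of several short motifs. The GC box was searched as GGGCGG. The glucocorticoid receptor motif was searched as TGTTCT. The remaining motif with a match was CCAAT.
Sult1a1: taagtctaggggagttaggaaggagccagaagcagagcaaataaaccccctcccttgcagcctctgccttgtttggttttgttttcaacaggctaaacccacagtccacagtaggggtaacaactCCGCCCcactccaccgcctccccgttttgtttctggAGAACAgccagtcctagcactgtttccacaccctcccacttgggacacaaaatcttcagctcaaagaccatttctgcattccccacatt
Qdpr: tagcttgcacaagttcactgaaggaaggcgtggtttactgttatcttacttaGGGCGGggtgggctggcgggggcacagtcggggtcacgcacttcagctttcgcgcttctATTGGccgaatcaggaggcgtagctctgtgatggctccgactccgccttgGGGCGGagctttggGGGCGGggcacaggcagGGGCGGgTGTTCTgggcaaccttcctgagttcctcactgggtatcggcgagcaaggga
The Sult1a1 window held 1 GC box, 125 bases before the start, and 1 glucocorticoid receptor motif, 89 bases before it. The Qdpr window held 4 GC boxes, at 198, 89, 75 and 58 bases, a CCAAT match at 139 bases and a receptor motif at 51 bases, and no 2 of these matches overlapped. Among all 33469 RefSeq promoter windows of this length, 30.5% held a GC box, 34.0% a CCAAT match and 17.5% the receptor motif. The TATA box, searched as TATAAA and found in 12.9% of windows, was in neither. These are matches of letters, and the data hold no measurement of binding at either gene.

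Of the 16172 genes tested, 18 (0.111%) differed between 6 and 28 months at an FDR under 0.05, 1 higher at 28 months (0.00618%) and 17 lower (0.105%). The gene that rose was Sult1a1. The 17 that fell have no name in the tables used here. Without the shared library, 33 of 16042 genes passed (0.206%), 1 higher (0.00623%), again Sult1a1, and 32 lower (0.199%), and these 33 included all 18 of the first fit. The exact test of edgeR called 39 genes with 6 libraries (0.241%) and 143 with 5 (0.891%), and DESeq2 called 27 (0.167%) and 72 (0.449%). The median log2FC of all genes was -0.01 in both fits. Leaving out 28 months sample 3 left 0 genes past the threshold of the quasi-likelihood test in either fit, with 246 and 549 genes at an unadjusted p under 0.05, so each call by that test below rests on that library being present. The exact test and DESeq2 were not run without it.

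Sult1a1 had 62, 49 and 50 reads in 6 months samples 1, 2 and 3 and 181, 140 and 150 reads in 28 months samples 1, 2 and 3. All 3 libraries at 28 months were above all 3 at 6 months, as for 3.2% of all genes tested, and the 12-month libraries, with 53 and 58 reads, were near the 6-month ones. The normalised count was 6.44 ± 0.619 CPM (SD, n = 3) at 6 months and 21.5 ± 1.86 CPM (SD, n = 3) at 28 months, a 3.34-fold higher level (log2FC 1.74, SE 0.18, FDR = 0.00423 by edgeR's quasi-likelihood test). The fit of 5 libraries gave a log2FC of 1.78 (SE 0.21, FDR = 0.00372 by the same test). The edgeR exact test and DESeq2 gave an FDR of 2.61e-06 and 3e-08 for the same 6 libraries. Without 28 months sample 3 the log2FC was 1.70 with an FDR of 0.0989 by edgeR's quasi-likelihood test, and in the 5 libraries 1.74 with an FDR of 0.0714. Between libraries on the same side of the split in overlapping reads, the log2 ratio of 28 to 6 months was 1.84 on the high side and 1.62 on the low side. In cortex, a higher level per cell and more cells that express a gene cannot be told apart, here and for every gene below. Sult1a1 was the only one of the 16 genes listed for sulfation that could be named in the files, so sulfotransferase relatives and the enzymes that supply PAPS are not described.

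**Figure D1:**
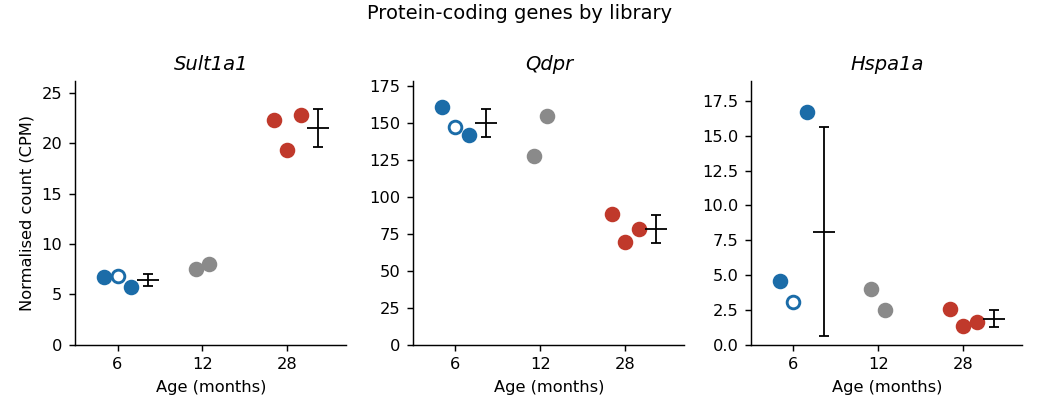
Normalised counts (CPM, y axis from 0) of Sult1a1, Qdpr and Hspa1a in each library by age in months, with the mean and SD of the 3 libraries at 6 and at 28 months; the open circle is the shared library and grey points are the 12-month libraries. The libraries at 6 and at 28 months separate without overlap for all 3 genes, and the shared library lies with the other 6-month libraries for Sult1a1 and Qdpr.

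Qdpr was lower at 28 months in every library and fell just short of the threshold. It had 1476, 1058 and 1239 reads at 6 months and 716, 502 and 515 at 28 months, with 895 and 1124 reads in the 12-month libraries. The lowest 6-month level was well above the highest level at 28 months, and 3.73% of all genes tested were lower without overlap in this way. The normalised counts were 150.1 ± 9.65 CPM (SD, n = 3) and 78.6 ± 9.52 CPM (SD, n = 3), a log2FC of -0.93 (SE 0.16, FDR = 0.0876 by edgeR's quasi-likelihood test), and -0.95 (SE 0.17, FDR = 0.0586) without the shared library. The edgeR exact test gave an FDR of 0.0633 and DESeq2 0.000285 on the 6 libraries, and 0.0105 and 0.000143 on the 5, so the call depends on the test chosen. Leaving out 1 of the 6 libraries gave a log2FC from -1.02 to -0.85, with an FDR of up to 0.9999 by edgeR's quasi-likelihood test. The log2 ratio was -0.78 on the high side of the split in overlapping reads and -1.002 on the low side.

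The tryptophan hydroxylases, which use the cofactor that Qdpr recycles, had few reads. Tph2, the form of serotonin neurons, had 36, 16 and 31 reads at 6 months and 8, 15 and 7 at 28 months. The ages did not overlap after scaling, but the 12-month libraries spanned 3 to 33 reads, and the log2FC of -1.24 (SE 0.40) did not pass. Tph1, the form of the pineal gland and gut, had 147 reads in the shared library and 0 to 4 in the other 5. Its log2FC of -4.53 (SE 1.67) therefore comes from 1 library, and without it Tph1 does not reach 5 reads in any library. The exact test called Tph1 in the 6 libraries (FDR = 0.00413), and the quasi-likelihood test of edgeR did not (FDR = 0.9999). With a term for the split in overlapping reads in the fit, the quasi-likelihood test called it (log2FC -5.47, FDR = 0.00471). That call, too, rests on the reads of the shared library. These were the 3 of 28 genes listed for serotonin and tetrahydrobiopterin that could be named.

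Hspa1a encodes the inducible HSP70 chaperone. It had 42, 22 and 146 reads at 6 months and 21, 10 and 11 at 28 months, and 28 and 18 at 12 months. The 28-month libraries were all lower than the 6-month ones after scaling, but 6 months sample 3 alone held most of the 6-month reads. The log2FC was -2.10 (SE 0.60, FDR = 0.9999 by edgeR's quasi-likelihood test), and -2.47 (SE 0.49, FDR = 0.124) without the shared library. The exact test gave an FDR of 0.00435 and DESeq2 0.0536 on the 6 libraries, and 1.78e-06 and 0.00282 on the 5. A near-identical copy, Hspa1b, lies beside this gene, and how its reads were counted is not given, so the value is uncertain. The log2FC ranged from -2.47 to -1.01 over the fits that left out 1 of the 6 libraries.

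Among genes that neurons switch on with activity, 3 of 35 listed could be named, and 0 passed the quasi-likelihood test of edgeR, the exact test or DESeq2 in either fit, with 0 and 1 at an unadjusted p under 0.05, beside 2.42% and 6.45% of all genes. Arc, which acts in the trafficking of AMPA receptors, had 540, 114 and 516 reads at 6 months and 349, 205 and 163 at 28 months. The shared library was the lowest of all 6, so the groups overlapped, with a log2FC of -0.48 (SE 0.41) with it and -0.88 (SE 0.22, FDR = 0.315 by edgeR's quasi-likelihood test) without it. The log2 ratio for Arc was -0.45 on the high side of the split in overlapping reads. On the low side, where the shared library is the only one at 6 months, it was 0.74. The transcription factor Klf10 showed no sign of a change at this precision, with a log2FC of 0.05 (SE 0.24) and -0.01 (SE 0.26). Egr3, another activity-induced transcription factor, had a log2FC of -0.02 (SE 0.34) and -0.36 (SE 0.21).

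The 17 lower genes of the 6-library fit fell into 4 profiles of counts. In the largest by level summed over its identifiers, 7 identifiers had counts within 1.24-fold of each other in all 8 independent libraries of the series, and all 7 passed. The files do not pair them with names. One of them, ENSRNOG00000034360, had 11852, 8180 and 9867 reads at 6 months and 3163, 3333 and 2752 at 28 months. Every 6-month library, the shared one included, was above all of the 28-month libraries. The 12-month libraries, with 1981 and 1173 reads, were lower still, so the lowest levels were not those of the oldest rats. The mean over the 7 was 1255 ± 92.0 CPM (SD, n = 3) at 6 months and 470.3 ± 20.5 CPM (SD, n = 3) at 28 months, a 2.67-fold lower level. The log2FC of the 7 ranged from -1.49 to -1.37, each with an FDR of 0.00423 by edgeR's quasi-likelihood test, and from -1.52 to -1.42 without the shared library.

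The next group held 10 identifiers within 1.32-fold of each other in every library. Of these, 8 passed with all 6 libraries and all 10 without the shared one. Here ENSRNOG00000035909 had 1979, 1406 and 1937 reads at 6 months and 452, 614 and 591 at 28 months, and 341 and 203 reads at 12 months. The ages were again apart in every library, and the 12-month levels were again the lowest. The mean over the 10 was 209.5 ± 11.2 CPM (SD, n = 3) at 6 months and 76.0 ± 21.3 CPM (SD, n = 3) at 28 months, with log2FC from -1.54 to -1.40 and FDR from 0.0269 to 0.0658 by edgeR's quasi-likelihood test. The 2 remaining identifiers were each outside these sets by level. The first fell from 23817, 14752 and 20338 reads to 6426, 6823 and 5257 (log2FC -1.46, SE 0.16, FDR = 0.00505 by the same test). Its normalised counts were 2594, 2059 and 2330 CPM at 6 months and 793, 943 and 798 CPM at 28 months. The mean of the set of 7 was 1360, 1188 and 1217 CPM, and then 458, 494 and 459 CPM. The libraries, those at 12 months included, had the same order of level in both. Whether it shares reads with that set was not tested. The second, much less abundant, fell from 146, 87 and 112 reads to 39, 37 and 37 (log2FC -1.40, SE 0.21, FDR = 0.0343). Whether identifiers with like counts are copies that share their reads was not tested. The 17 calls are therefore described as 4 groups, and the level of any 1 identifier is uncertain. Whether the 4 groups are independent of each other was not tested. The summed level of the set of 7 was lower at 28 months on both sides of the split in overlapping reads, with a log2 ratio of -1.49 on the high side and -1.32 on the low side, and that of the set of 10 with a log2 ratio of -2.06 and -1.16. With a term for that split in the fit, 20 genes passed, 17 of them among the 18.

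**Figure D2:**
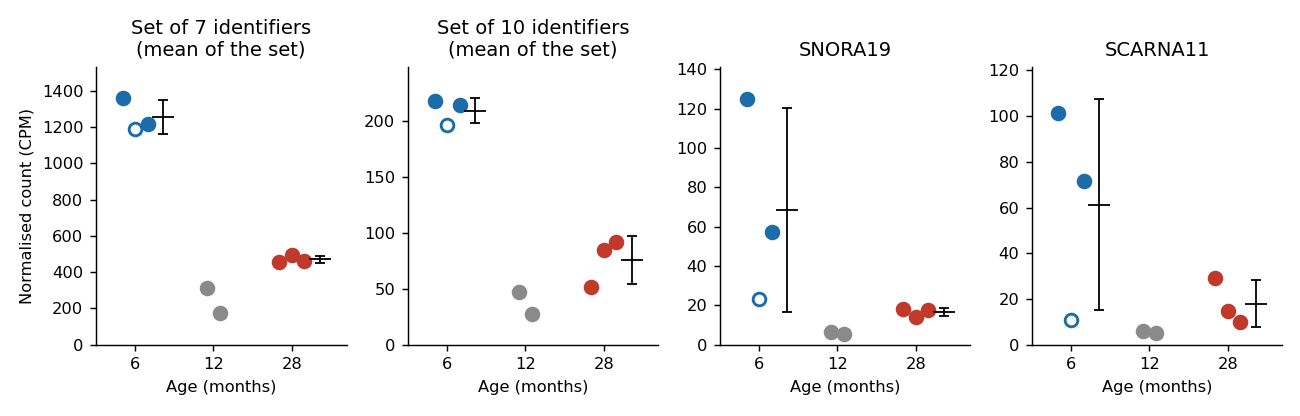
Normalised counts (CPM, y axis from 0) by age in months for the mean of the set of 7 identifiers with like counts, the mean of the set of 10, SNORA19 and SCARNA11, with the mean and SD of the 3 libraries at 6 and at 28 months; the open circle is the shared library and grey points are the 12-month libraries. The shared library lies with the other 6-month libraries in both sets, and near the 28-month libraries for SNORA19 and SCARNA11.

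Without the shared library 15 further genes passed, all of them lower at 28 months, and 6 carry the name of a snoRNA or scaRNA. SNORA19 and SNORA36, of the H/ACA class, led these. SNORA19, which has 3 named identifiers, had 1147, 166 and 499 reads at 6 months and 147, 102 and 116 at 28 months for its most abundant one. The shared library was close to the older group, and the other 6-month libraries were far above it. The log2FC was -2.04 (SE 0.47, FDR = 0.680 by edgeR's quasi-likelihood test) with the shared library and -2.45 (SE 0.28, FDR = 0.00357) without it. Another SNORA19 identifier passed without it (log2FC -2.37, FDR = 0.0377), and the remaining one did not (log2FC -2.07, FDR = 0.166 by edgeR's quasi-likelihood test), although the exact test and DESeq2 called it (FDR = 4.14e-06 and 0.00411). Leaving out 28 months sample 3 as well took the FDR of the first to 0.0714, and that of the other called one reached 0.370 when 1 more library was left out, both by edgeR's quasi-likelihood test.

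SNORA36 had 245, 18 and 132 reads at 6 months and 43, 13 and 15 at 28 months for the identifier that passed (log2FC -2.71, SE 0.38, FDR = 0.0171 by edgeR's quasi-likelihood test, without the shared library). SCARNA11 had 931, 77 and 625 reads at 6 months and 238, 107 and 65 at 28 months (log2FC -2.25, SE 0.34, FDR = 0.0235 in the same fit). The shared library, at 18 and 77 reads, was inside the 28-month range for both. SNORA21 (log2FC -2.05, FDR = 0.0246) and SNORA70 (log2FC -1.43, FDR = 0.0288) passed in that fit too, each for 1 identifier. Each of these 4 kept its sign in every fit that left out 1 more library and lost the call in at least 1 of them, with an FDR of up to 0.151 for SNORA36, 0.119 for SCARNA11, 0.175 for SNORA21 and 0.348 for SNORA70 by edgeR's quasi-likelihood test. On the high side of the split in overlapping reads, the log2 ratio was -1.98 for SNORA36, -1.56 for SCARNA11, -1.48 for SNORA21 and -1.03 for SNORA70. On the low side, where the shared library is the only one at 6 months, it was -0.30, 0.20, 0.63 and 0.63 in the same order. The other SNORA21 and SNORA70 identifiers did not pass. Their log2 ratios were 0.08 and -0.05 on the high side, and -0.92 and 0.50 on the low side. For that SNORA70 identifier the log2FC without the shared library was -0.41 (FDR = 0.805 by edgeR's quasi-likelihood test). SNORA64, which the exact test and DESeq2 called in the 6 libraries (FDR = 0.00341 and 0.00129), had 2769, 1006 and 1364 reads at 6 months and 616, 729 and 431 at 28 months. Its ages did not overlap even with the shared library, but the quasi-likelihood FDR was 0.612, and 0.0521 without that library, where the exact test and DESeq2 gave 8.88e-06 and 4.48e-05.

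All 33 named H/ACA snoRNAs had a log2FC below 0 in both fits, beside 51.4% of all genes tested, with a median of -0.96 in the 6 libraries and -1.28 in the 5. Because names came mostly from the study's tests on these same libraries, an excess over all genes here is not independent evidence. With all 6 libraries 0 of 33 passed edgeR's quasi-likelihood test, 19 of 33 had an unadjusted p under 0.05, beside 2.42% of all genes, and the exact test called 7 and DESeq2 1, beside 0.241% and 0.167% of all genes. Without the shared one, 5 of 33 passed, beside 0.206% of all genes, and those tests called 23 and 13, beside 0.891% and 0.449%. Their libraries did not overlap between ages, lower at 28 months, for 4 of 33 in the 6 libraries, where this held for 3.73% of all genes, and for 23 of 33 in the 5, where it held for 11.0%. The summed level was 9103, 3004 and 7417 CPM at 6 months and 4401, 3186 and 3207 CPM at 28 months, and 2131 and 1911 CPM at 12 months. The highest 3 values were those of the libraries with more overlapping reads, at either age. Within the high side of that split the log2 ratio of the sum was -0.91, and 31 of 33 members were lower at 28 months. Within the low side, where the shared library is the only one at 6 months, it was 0.09 and 17 of 33 were lower. With a term for the split in the fit of 6 libraries, 0 of 33 passed edgeR's quasi-likelihood test, 10 had an unadjusted p under 0.05, beside 2.75% of all genes, and their median log2FC was -0.53. That fit, too, takes the shared library as a 6-month one. In the 5 libraries, where both 6-month libraries are on its high side, the part of the split was not tested.

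The 3 scaRNAs, which guide changes in spliceosomal RNAs, were alike in pattern. Their sum was 293.2, 46.1 and 152.8 CPM at 6 months and 127.6, 35.0 and 53.0 CPM at 28 months. The log2 ratio was -0.81 on the high side of the split and -0.07 on the low side, with only the shared library at 6 months. Mitochondrial tRNAs, which decode the proteins made inside mitochondria, gave 976.4, 253.5 and 866.1 CPM at 6 months and 631.6, 288.6 and 322.6 CPM at 28 months over 6 identifiers. All 6 had a log2FC below 0, and 0 passed edgeR's quasi-likelihood test in either fit, with 1 and 6 at an unadjusted p under 0.05, beside 2.42% and 6.45% of all genes. The exact test and DESeq2 called 0 of them with the shared library and 4 and 1 without it, beside 0.891% and 0.449% of all genes. The log2 ratio of the sum was -0.54 on the high side and 0.27 on the low side, again with only the shared library at 6 months. U1, a core RNA of the spliceosome, had 8113, 1296 and 4723 reads at 6 months and 5440, 1431 and 1099 at 28 months. It was high in the same 3 libraries, with a log2FC of -0.63 (SE 0.58).

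C/D snoRNAs differed from the H/ACA class in that 6 of 16 had a log2FC above 0, with a median of -0.13 in the 6 libraries and -0.34 in the 5. Of the 16, 0 passed edgeR's quasi-likelihood test, the exact test or DESeq2 in either fit, and 0 and 6 had an unadjusted p under 0.05, beside the same 2.42% and 6.45%. The difference between the classes was not tested. SNORD116, a C/D snoRNA of the imprinted Prader-Willi region, had 15354, 2232 and 10862 reads at 6 months and 15700, 2525 and 4060 at 28 months for its most abundant identifier. The log2FC was -0.15 (SE 0.63), and 0.52 with a term for the split in overlapping reads. The log2 ratio was 0.41 on its high side and 0.63 on its low side, where the shared library is the only one at 6 months. SNORD37 was more even, with 2193, 1107 and 2705 reads at 6 months and 2665, 2715 and 1954 at 28 months (log2FC 0.51, SE 0.24). Summed over the 52 named snoRNAs and scaRNAs, the share of gene reads was 0.941 ± 0.426% (SD, n = 3) at 6 months and 0.619 ± 0.121% (SD, n = 3) at 28 months, with p = 0.4 by an exact two-sided permutation test, for which the smallest p with 3 against 3 is 0.1. The vault RNA, part of a large cytoplasmic particle, had 282, 66 and 113 reads at 6 months and 73, 47 and 38 at 28 months. Its ages did not overlap after scaling, with a log2FC of -1.31 (SE 0.40) that did not pass. Without the shared library the log2FC was -1.61, and the exact test and DESeq2 called it (FDR = 5.39e-05 and 0.00677), while edgeR's quasi-likelihood test did not (FDR = 0.141).

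**Figure D3:**
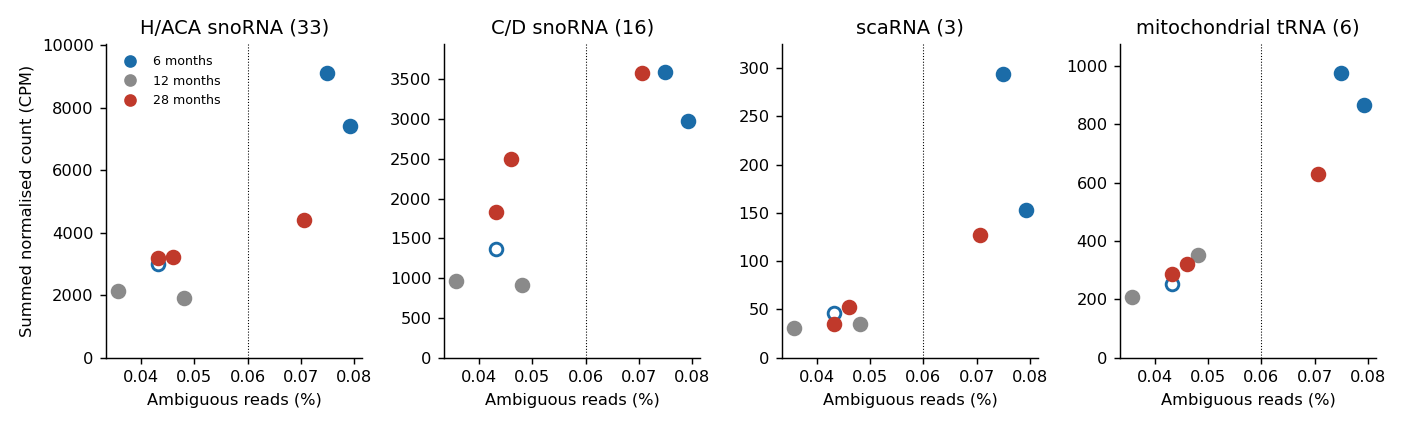
Summed normalised count (CPM, y axis from 0) of the named RNAs of 4 classes in each library against the percentage of mapped reads that overlapped more than 1 gene; the open circle is the shared library, the dotted line marks the split at 0.06% and the number of identifiers is in each title. The 3 libraries to the right of the line, from both ages, hold the highest sums in every class shown.

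**Figure D4:**
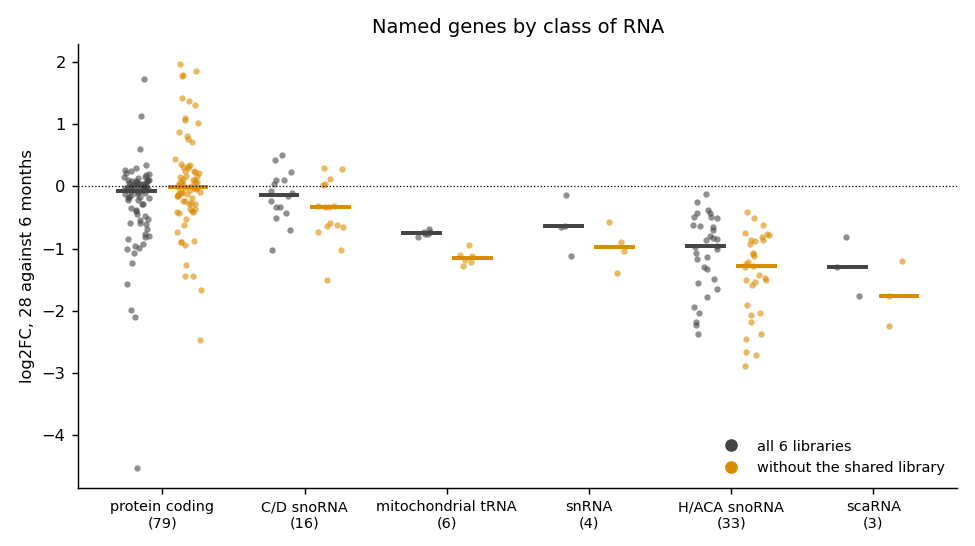
The log2FC of each named gene, 28 against 6 months (y axis), by class of RNA, in the fit of all 6 libraries (dark) and without the shared library (orange), with a bar at the median and the number of identifiers below each class. The medians of the 33 H/ACA snoRNAs are -0.96 and -1.28, and those of the protein-coding genes are -0.07 and -0.01.

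Of the 79 named protein-coding genes, 1 passed edgeR's quasi-likelihood test with all 6 libraries, beside 0.111% of all genes, and their median log2FC was -0.07. An unadjusted p under 0.05 by that test was found for 12, beside 2.42% of all genes. The exact test called 2 lower and 1 higher, beside 0.241% of all genes, and DESeq2 1 lower and 1 higher, beside 0.167%. Without the shared library, 1 of 77 passed edgeR's quasi-likelihood test, beside 0.206% of all genes. In that fit 22 had an unadjusted p under 0.05, beside 6.45% of all genes. The exact test then called 3 lower and 4 higher, beside 0.891%, and DESeq2 2 lower and 3 higher, beside 0.449%. The 33 genes that the study listed for tests of transcript usage and not of the gene as a whole, many of them genes of neuronal signalling and transport, had log2FC between -0.22 and 0.25 in the 6 libraries. Of them 0 passed edgeR's quasi-likelihood test, the exact test or DESeq2 there. An unadjusted p under 0.05 was found for 0 of the 33, beside 2.42% of all genes, which is near that share. Gria2, a subunit of AMPA receptors, had 7907, 5606 and 7796 reads at 6 months and 7688, 6755 and 6156 at 28 months. After scaling its ages did not overlap, but the log2FC was only 0.15 (SE 0.14). Hprt1, used as a reference gene in qPCR, had a log2FC of 0.20 (SE 0.19). In this group Etv1, a transcription factor, depended most on the shared library, which held 1479 reads against 418 and 471 in the other 6-month libraries and 968, 485 and 840 at 28 months. Its log2FC was 0.05 (SE 0.49) with the shared library and 1.07 (SE 0.26, FDR = 0.256 by edgeR's quasi-likelihood test) without it, where the exact test and DESeq2 called it (FDR = 0.0148 and 0.0153).

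MHC class II molecules display peptides from outside the cell to helper T cells, and in brain are carried mainly by microglia and other resident immune cells. All 5 named genes of this pathway had a negative log2FC with the shared library, from -0.68 to -0.19, and a positive one without it, from 0.82 to 1.37. RT1-Da, a class II alpha chain, had 27, 179 and 26 reads at 6 months and 59, 72 and 38 at 28 months. The shared library was the highest of the 6, and the 28-month libraries lay between it and the other 6-month libraries. The 12-month libraries, with 147 and 279 reads, were on the level of the shared one. Its log2FC was -0.39 (SE 0.69) with the shared library and 1.37 (SE 0.31, FDR = 0.201 by edgeR's quasi-likelihood test) without it, where the exact test gave an FDR of 0.0146. RT1-Ba had 61, 231 and 29 reads at 6 months and 81, 76 and 66 at 28 months, and Cd74, the invariant chain that guides class II molecules to their peptides, had 47, 167 and 44 and then 58, 93 and 46. In both, the shared library was the highest and the other 6-month libraries were below all 3 at 28 months. Without the shared library all 5 genes were higher in every 28-month library than in both 6-month libraries, which held for 10.9% of all genes in that fit. For RT1-Ba the log2 ratio of 28 to 6 months was 1.01 on the high side of the split in overlapping reads and -1.65 on the low side, where the shared library is the only one at 6 months. By the quasi-likelihood test of edgeR 0 of the 5 passed in either fit, with 0 and 5 at an unadjusted p under 0.05, beside 2.42% and 6.45% of all genes, and DESeq2 called 0 in both. Relatives within the RT1 family can share reads, so single chains are uncertain.

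**Figure D5:**
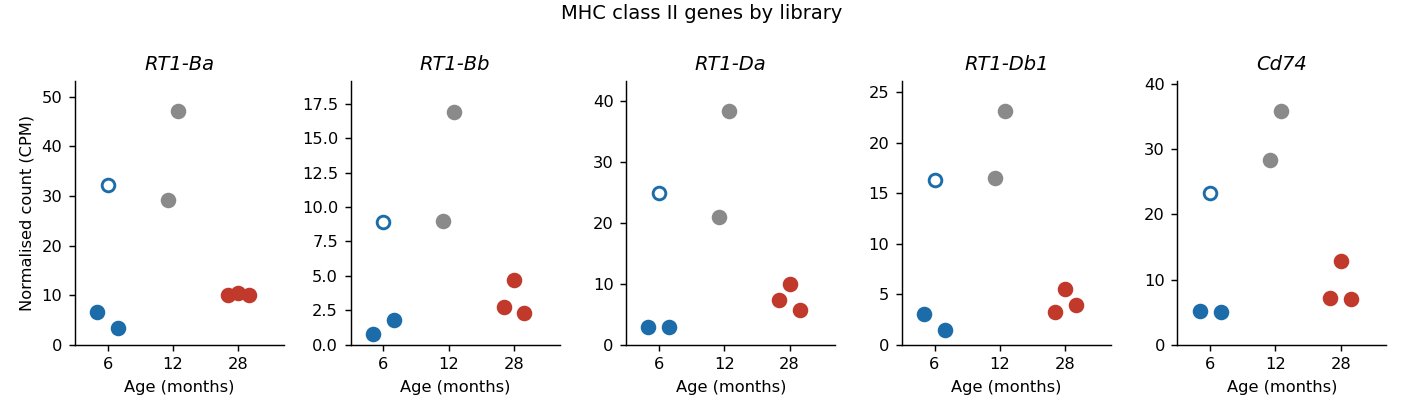
Normalised counts (CPM, y axis from 0) of Cd74 and of 4 class II chains, RT1-Da, RT1-Db1, RT1-Ba and RT1-Bb, in each library by age in months; the open circle is the shared library and grey points are the 12-month libraries. The shared library lies above all 3 libraries at 28 months for each gene, and the other 2 libraries at 6 months lie below them.

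Markers of cell types and of other tissues could be checked for 5 of 109 symbols, too few to set the makeup of the samples. Gfap, of astrocytes, had 665, 1081 and 778 reads at 6 months and 424, 557 and 349 at 28 months. The shared library was the highest in Gfap, and Gfap was lower at 28 months with a log2FC of -0.77 (SE 0.27) with it and -0.41 (SE 0.20) without it, neither of which passed. Aif1, of microglia, had 52, 35 and 45 reads at 6 months and 28, 18 and 18 at 28 months (log2FC -0.85, SE 0.26, FDR = 0.9999 by edgeR's quasi-likelihood test). The ages did not overlap in either fit, and without the shared library the log2FC was -0.90 (FDR = 0.585 by the same test). The class II genes also had a log2FC below 0 with the shared library, and without it were ordered the other way from Aif1. Alb, a plasma protein of liver origin, had 51 reads in the shared library, 3 in each of the other 6-month libraries, 6 to 15 at 28 months, and 23 and 51 at 12 months. What the composition of the tissue adds to these values was not tested.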

How the data were processed

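Total RNA was extracted from the cerebral cortex, pooled from 2 rats per library and depleted of ribosomal RNA. The authors mapped the SOLiD reads with Bowtie to the Ensembl release 65 rat genome (build rn4 per the labels), counted reads per gene with HTSeq, and deposited the raw counts with no scaling. Versions of these tools, the strand setting and the treatment of reads with several matches are not given in the sources used here. Only rows of Ensembl gene identifiers were used, and reads on no gene (50.4 to 60.0% of mapped reads) or on several genes stayed out of library sizes.

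Genes that reached 5 reads in 1 or more of the libraries compared were tested with glmQLFit and glmQLFTest of edgeR 4.0.16 (R 4.3.3) after TMM scaling, at a Benjamini-Hochberg FDR of 0.05. SE is the log2FC divided by the square root of F. The alternatives were edgeR's exact test with tagwise dispersion (prior degrees of freedom 28, proportion 0.5, grid length 500), DESeq2 1.42.0, RLE size factors, library sizes without the most abundant gene, 3 other filters, a dispersion shared with the 12-month libraries and leaving out each library. A term for the split in ambiguous reads at 0.06% was added after the data had been seen. Depth was 6513376 to 9196951 gene reads per library, and the median SE was 0.718 for genes with a mean under 10 reads, 0.306 from 10 to 100, 0.187 from 100 to 1000 and 0.170 above. The identical pair of files was counted as 1 library; for all other pairs the chi-square of the counts over 10968 genes, divided by its degrees of freedom, was 8.01 or more. Replicates are pools of different rats as far as the labels tell.

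Genes named are those past the threshold in the 6 libraries, up to 10 per direction without the shared library, a list of genes the study names, and list members by smallest FDR; no more than 2 unnamed identifiers are printed. SNORA64, U1, SNORD116, SNORD37, Etv1 and Alb were singled out after their values were seen. The members and lists were chosen with earlier results of these data known. Of 355 listed symbols, 26 could be paired with an identifier, so most lists, among them those for antioxidant enzymes, complement, oligodendrocytes and neurons, had no named member. The identifier the study names Tf carries the name of another gene there and is not described, and the results of some named genes are not reported here. Promoters were matched by symbol for 50 of 79 named protein-coding genes. Columns of fold changes and p-values in the study's tables were not used.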

Additional observations from a re-analysis of the deposited data

How the results depend on the processing

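No paired analysis was possible because the labels number the libraries through the series and share no replicate number between ages. With all 6 libraries the count of 18 genes was 39 by the exact test, 27 by DESeq2, 27 with 1 read in any library, 12 with dispersion shared with the 12-month libraries, 20 with the split term, and 18 with RLE factors, without the most abundant gene, with 10 reads in every library and with filterByExpr. Leaving out 1 library gave 0 to 33. Without the shared library the count of 33 was 143 by the exact test (45 higher), 72 by DESeq2 (12 higher) and 199 (79 higher) with 1 read in any library, and leaving out a further library gave 0 to 137; with 28 months sample 1 left out (137) the ages coincide with the split in ambiguous reads. The cause of these differences between tests was not tested. The H/ACA count of 0 became 7 by the exact test, 1 by DESeq2 and 5 without the shared library. The scaRNA count became 1 by the exact test and 1 without that library. The serotonin and tetrahydrobiopterin count became 1 by the exact test, 1 by DESeq2 and 1 with the split term. Leaving out 1 of the 6 libraries moved the log2FC over 0 for RT1-Ba (-0.91 to 1.02), RT1-Bb (-0.70 to 1.31), RT1-Da (-0.84 to 1.37), RT1-Db1 (-1.17 to 0.88) and Cd74 (-0.64 to 0.82), each positive only without the shared library, and for Klf10 (-0.23 to 0.21, and -0.29 to 0.15 in the 5 libraries), Egr3 (-0.36 to 0.31), Etv1 (-0.31 to 1.07), Alb (-1.51 to 1.86), the most abundant SNORD116 identifier (-1.15 to 0.32) and SNORA identifiers not described singly. Arc became 0.11 with the split term. Low depth limits genes under 10 reads, none of which passed.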
